A study of Homo sapiens with 6 samples.

Results

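A set of 10 genes linked to the actin cytoskeleton, which are known targets of serum response factor (SRF) or of the coactivator YAP, was followed in EndoC-βH1 cells treated with AZD7762. The set was given as a list of symbols, namely SRF, CCN1, CCN2, ANKRD1, AMOTL1, AMOTL2, LATS2, VCL, ACTB and ACTG1, and each symbol was matched to 1 of the 60671 Ensembl identifiers in the count files. EndoC-βH1 is a human β-cell line made by immortalizing fetal pancreatic cells, and all samples are labelled wild type. Bulk RNA-seq of polyadenylated RNA was performed on 3 samples treated with the vehicle DMSO and 3 treated with 1 µM AZD7762, an inhibitor of the checkpoint kinases CHEK1 and CHEK2. DMSO or AZD7762 was present during a starvation of 1 h in 0.5 mM glucose and during the following 1 h of stimulation at low or high glucose, and which of these concentrations applies to each library is not given. All 6 samples come from this single line. The study describes its in vitro replicates in general as independent, but the labels do not say whether these were separate cultures, so p-values measure the spread between these samples, which may be technical.

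SRF is a transcription factor that binds CArG boxes, short A/T-rich elements bounded by C and G bases. Its cofactors of the MRTF family are held in the cytoplasm by monomeric actin and enter the nucleus when actin polymerizes, whereas its ternary complex cofactors such as ELK1 respond to MAP kinase signals and drive immediate early genes. YAP and its paralog TAZ (gene WWTR1) act through TEAD factors, which bind GGAATG and its reverse complement, and are kept out of the nucleus by the LATS kinases of the Hippo pathway. Both systems read mechanical tension. YAP is known to be switched off in endocrine cells of the pancreas during development.

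Promoter windows were examined for these elements to show which of the genes carry them close to their start. RefSeq windows on GRCh38.p14, each from 250 bases before to 50 bases after an annotated start, were matched for 8 of the 10 genes, all except CCN1 and ACTB. The 4 sequences shown are those with a CArG box or more than 1 GGAATG, with CArG boxes (SRF, ACTG1) or GGAATG (CCN2, ANKRD1) in capitals, each written 5′ to 3′ on the strand of the gene. They lie at chr6:43171019-43171318 on the plus strand (SRF), and on the minus strand at chr17:81512750-81513049 (ACTG1), chr6:131951323-131951622 (CCN2) and chr10:90921038-90921337 (ANKRD1).
SRF: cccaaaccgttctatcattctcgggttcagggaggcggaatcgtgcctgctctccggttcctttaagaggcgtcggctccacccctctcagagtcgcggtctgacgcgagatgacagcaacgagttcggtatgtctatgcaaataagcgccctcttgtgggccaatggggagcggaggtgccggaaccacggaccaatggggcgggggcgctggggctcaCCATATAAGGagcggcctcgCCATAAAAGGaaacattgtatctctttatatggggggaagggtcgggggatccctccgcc
ACTG1: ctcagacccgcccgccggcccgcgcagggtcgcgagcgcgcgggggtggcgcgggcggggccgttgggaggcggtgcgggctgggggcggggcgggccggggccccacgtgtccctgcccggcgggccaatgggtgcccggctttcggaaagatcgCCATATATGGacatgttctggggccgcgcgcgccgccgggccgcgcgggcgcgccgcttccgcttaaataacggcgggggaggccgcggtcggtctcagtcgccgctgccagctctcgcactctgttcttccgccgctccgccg
CCN2: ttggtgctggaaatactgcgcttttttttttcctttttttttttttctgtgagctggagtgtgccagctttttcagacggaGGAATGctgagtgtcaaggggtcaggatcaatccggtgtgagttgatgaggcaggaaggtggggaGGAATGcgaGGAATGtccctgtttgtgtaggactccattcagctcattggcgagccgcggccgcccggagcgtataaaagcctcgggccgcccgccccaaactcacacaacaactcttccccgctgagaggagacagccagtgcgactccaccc
ANKRD1: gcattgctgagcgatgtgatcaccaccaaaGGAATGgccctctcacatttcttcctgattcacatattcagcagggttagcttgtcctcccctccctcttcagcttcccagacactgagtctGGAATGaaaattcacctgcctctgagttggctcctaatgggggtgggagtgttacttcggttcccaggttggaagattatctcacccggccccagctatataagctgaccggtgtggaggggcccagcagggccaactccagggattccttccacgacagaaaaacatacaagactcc

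The first of 2 SRF windows held 2 CArG boxes, which began 30 and 10 bases before the start, and the second window held none. ACTG1 held 1, which began 94 bases before the start. A CArG box was present in 1.29% of the 35116 windows in the table. GGAATG on either strand occurred 3 times in CCN2, 2 times in ANKRD1 and 1 time each in VCL, LATS2 and the second window of AMOTL2, against 14.0% of all windows with at least 1 match. None of the matches overlapped another, and AMOTL1 held neither element. The cyclic AMP response element TGACGTCA, present in 1.85% of all windows, was found in none of the windows of these genes. These matches describe letters in the windows only.

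**Figure D1:**
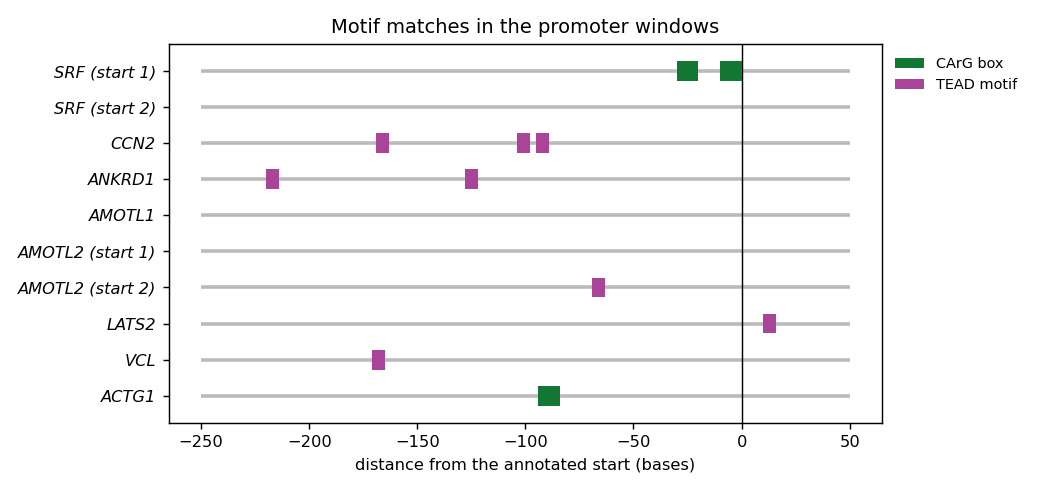
Positions of CArG boxes (green) and GGAATG on either strand (purple, TEAD motif) in the 10 promoter windows of 8 genes, with the distance from the annotated start in bases on the x axis and grey lines for the windows. SRF (2) and ACTG1 (1) hold the CArG boxes, and CCN2 (3) and ANKRD1 (2) hold most of the GGAATG matches.

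The libraries held between 20486391 and 29402440 counts on genes. A level is given below as normalized CPM, in which counts are scaled by the TMM-adjusted total of their library. The limit that a count of 0 allows, 3 counts, was from 0.102 to 0.144 CPM, a limit that covers counting error only. All 8 β-cell markers examined, INS, PDX1, NKX6-1 and MAFA among them, were measured in every sample, with a summed level between 1821 and 2498 CPM with DMSO and between 2007 and 2491 CPM with AZD7762. Most of this sum was INS, and MAFA was called higher, from 17.3 ± 3.41 to 40.4 ± 4.25 CPM (log2 fold change 1.24, edgeR adjusted p = 0.000133). Mesenchymal markers, which belong to a cell type rich in YAP and SRF targets, summed to between 15.8 and 20.9 CPM with DMSO and between 17.3 and 20.7 CPM with AZD7762, and 3 of the 8 (DCN, LUM and PDGFRA) had a median of 3 counts or fewer. COL1A1 held most of that sum, and COL1A2 had every AZD7762 sample above every DMSO sample (2.92 ± 0.275 and 4.36 ± 0.403 CPM, unadjusted p = 0.00149, adjusted p = 0.125 by edgeR). All 4 endothelial markers that were matched to an identifier and 4 of 5 immune markers were also at a median of 3 counts or fewer. A further endothelial marker, PECAM1, was not matched. Markers of other endocrine cells, mostly SST, summed to between 222 and 253 CPM with DMSO and between 261 and 287 CPM with AZD7762. Mitochondrial genes held between 1.57% and 2.13% of the counts with DMSO and between 2.26% and 2.63% with AZD7762. Exocrine and ductal markers, mostly KRT19 and CPA1, summed to between 45.4 and 51.9 CPM and between 50.3 and 56.4 CPM. The groups did not overlap in the other endocrine and the mitochondrial measures, and the part of these, of MAFA or of COL1A2 in the results below was not tested.

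The 10 genes covered a wide range of levels. On a per-length scale (CPM per kb of exon, mean ± SD with DMSO, n = 3), the cytoplasmic actins led with 1062 ± 106 for ACTG1 and 526 ± 26.9 for ACTB. On this scale, over both groups, ACTG1 stood above 99.9% of the genes tested and ACTB above 99.8%. VCL, AMOTL1 and SRF followed with 15.9 ± 0.373, 13.8 ± 0.240 and 12.8 ± 2.80 CPM per kb, where the SRF samples lay on both sides of the AMOTL1 samples and below each VCL sample. The other 5, all of them YAP targets, were lower. CCN2 had 1.25 ± 0.160 CPM per kb, ANKRD1 0.413 ± 0.0562, AMOTL2 0.124 ± 0.0214, CCN1 0.0977 ± 0.0465 and LATS2 0.0509 ± 0.0158, where AMOTL2 and CCN1, and CCN1 and LATS2, overlapped between samples. The median over the 17549 tested genes with a known length was 3.82 CPM per kb. Over both groups, LATS2 stood above 0.564% of these genes, CCN1 above 2.32%, AMOTL2 above 2.57%, ANKRD1 above 12.1%, CCN2 above 27.8% and SRF above 84.8%.

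**Figure D2:**
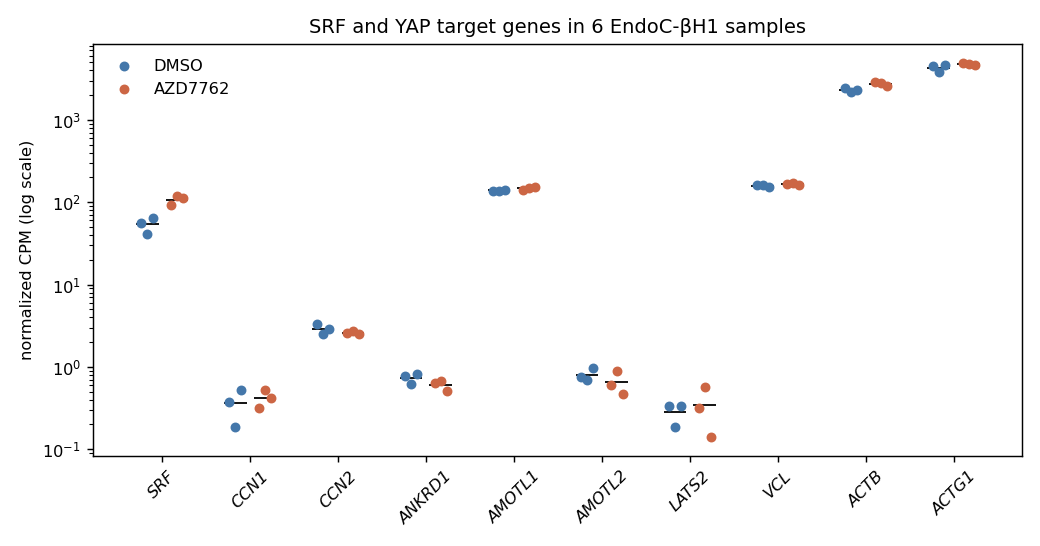
Normalized CPM (log scale) of the 10 genes in 3 DMSO (blue) and 3 AZD7762 (orange) samples, with a point per sample and a bar at each group mean. SRF with AZD7762 (91.7 to 118 CPM) lies above SRF with DMSO (41.6 to 65.1 CPM), the actins lie at 2202 CPM or more, and CCN1, ANKRD1, AMOTL2 and LATS2 lie under 1 CPM.

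AZD7762 was compared with DMSO to ask which of these genes changed over the treatment. Of the 10 genes, 8 passed the filter on low counts, and of these 1, SRF, was called at an adjusted p under 0.05 over all genes in edgeR's quasi-likelihood test, upward. None of the 8 was called lower. Among the 17649 genes tested, 0.708% were called, 63 higher (0.357%) and 62 lower (0.351%) with AZD7762, a split that moved to 59 of 149 higher with library totals alone. In 3 of the 8 genes, SRF, ACTB and ACTG1, every AZD7762 sample lay above every DMSO sample, against 6.79% of all genes tested, and in none did every AZD7762 sample lie below, against 8.25% (15.0% in either direction). At an unadjusted p under 0.05 were 2 of the 8, SRF and ACTB, against 9.68% of all genes.

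SRF (ENSG00000112658), on chromosome 6 of GRCh37 from 43139007 to 43149244, rose with AZD7762. Its level in DMSO replicates 1, 2 and 3 was 55.6, 41.6 and 65.1 CPM, and in AZD7762 replicates 1, 2 and 3 it was 91.7, 118 and 112 CPM. All AZD7762 samples lay above all DMSO samples, and the DMSO samples were spread widely. The mean went from 54.1 ± 11.9 to 107 ± 13.8 CPM (SD, n = 3 in each group), a 1.99-fold rise (95% interval 1.62 to 2.44; log2 fold change 0.99, with a standard error of 0.135 and adjusted p = 0.00234 in edgeR's test). Over 16 alternative settings its log2 fold change lay between 0.82, without DMSO replicate 2, and 1.14, without DMSO replicate 3, and it was called in each. In bulk samples, more cells with SRF mRNA and more of it per cell cannot be told apart. The exons of SRF, with 60.8% G and C bases, overlap no other gene of the annotation. With trends of GC content and length taken out of each library, the log2 fold change was 0.95.

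The cytoplasmic actins, whose monomers bind the MRTF cofactors, are themselves SRF targets. ACTB (β-actin, ENSG00000075624, chromosome 7, 5566040 to 5603533) had 2439, 2202 and 2307 CPM in DMSO replicates 1, 2 and 3 and 2848, 2809 and 2550 CPM in AZD7762 replicates 1, 2 and 3. The groups did not overlap, but the difference was small, 18.1% (95% interval 5.87% to 31.8%; log2 fold change 0.24, standard error 0.0727), with an unadjusted p of 0.00608 and an adjusted p of 0.256 in edgeR's test. It was called when the replicate number was added as a block (adjusted p = 0.0150 in edgeR's test), with GC and length offsets and the block together (adjusted p = 0.0224) and without a filter on low counts (adjusted p = 0.0274), and in none of the other 13 alternatives. ACTG1 (γ-actin, ENSG00000184009, chromosome 17, 79476439 to 79490873) had 4506, 3812 and 4596 CPM with DMSO and 4952, 4828 and 4655 CPM with AZD7762 in replicates 1, 2 and 3. Its groups were separated by a narrow gap, and its change of 11.8% (95% interval -1.36% to 26.6%) was not called (adjusted p = 0.573 in edgeR's test). The actins together took from 0.607% to 0.703% of all counts with DMSO and from 0.714% to 0.770% with AZD7762. ACTB and ACTG1 encode nearly identical proteins, and how reads that could match both genes were assigned was not examined. The 33 annotated ACTB and ACTG1 pseudogenes summed to between 10.5 and 15.0 CPM, at most 0.208% of the counts of the actin genes themselves.

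VCL encodes vinculin, which couples actin filaments to integrin and cadherin adhesions. VCL (ENSG00000035403, chromosome 10, 75754951 to 75881121) had 160, 161 and 154 CPM in DMSO replicates 1, 2 and 3 and 166, 172 and 161 CPM in AZD7762 replicates 1, 2 and 3. The groups overlapped and the difference of 4.80% (95% interval -3.72% to 14.1%) was not called (adjusted p = 0.753 in edgeR's test), an interval that leaves out a rise as large as that of SRF. Of its exon length, 11.1% overlaps AP3M1 on the opposite strand, and whether strand was used in the counting is not given. AP3M1 itself stood at 143 ± 5.46 CPM in the DMSO group and at 143 ± 9.13 CPM in the AZD7762 group. The ratio of SRF to each of the abundant members within a sample, which does not depend on library scaling, was examined after the values had been seen. Their comparison has no test. The log2 ratio of SRF to VCL lay between -1.95 and -1.24 with DMSO and between -0.85 and -0.52 with AZD7762, and the mean difference was 0.94 to VCL, 0.92 to AMOTL1, 0.84 to ACTG1 and 0.76 to ACTB. The groups did not overlap in any of the 4 ratios. All 4 share SRF, whose own groups did not overlap, so they are not separate observations.

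AMOTL1 and AMOTL2 encode angiomotin-like scaffolds that bind actin and hold YAP in the cytoplasm, and LATS2 encodes a kinase that phosphorylates YAP. AMOTL1 (ENSG00000166025, chromosome 11, 94439597 to 94609913) had 137, 138 and 141 CPM with DMSO and 140, 147 and 153 CPM with AZD7762 in replicates 1, 2 and 3. An unnamed gene of the opposite strand covers 4.95% of its exons. These groups overlapped at their edges, with a difference of 5.75% (95% interval -3.05% to 15.3%; adjusted p = 0.704 in edgeR's test). AMOTL2 (ENSG00000114019, chromosome 3, 134074189 to 134094321) had 0.745, 0.699 and 0.959 CPM with DMSO and 0.596, 0.903 and 0.469 CPM with AZD7762 in the same order, from 10 to 22 counts per sample. AZD7762 samples fell on both sides of the DMSO samples, and the log2 fold change of -0.27 with a standard error of 0.301 (adjusted p = 0.823 in edgeR's test) left room for changes from -47.4% to 30.3%. Without a correction for length, AMOTL2 contributed 0.572% ± 0.0891 of the summed AMOTL1 and AMOTL2 counts with DMSO and 0.446% ± 0.154 with AZD7762.

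LATS2 (ENSG00000150457, chromosome 13, 21547175 to 21635725) did not pass the filter on low counts. It had 10, 5 and 7 counts in DMSO replicates 1, 2 and 3 and 8, 12 and 3 counts in AZD7762 replicates 1, 2 and 3, the last at the floor. The summed counts, scaled by library, gave a ratio of 1.20 of AZD7762 to DMSO with a 95% exact binomial interval from 0.640 to 2.26, which covers counting error only and not the spread between samples. Its paralog LATS1 had 120 ± 4.17 CPM in DMSO samples and 121 ± 9.16 CPM in AZD7762 samples, and LATS2 made up 0.239% ± 0.0771 and 0.283% ± 0.170 of the LATS counts, again without a correction for length.

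CCN1 (also named CYR61) and CCN2 (CTGF) encode secreted matricellular proteins and are among the best known YAP targets, CCN1 and ANKRD1 being responsive to MRTF and SRF as well. CCN2 (ENSG00000118523, chromosome 6, 132269316 to 132272512) had 3.28, 2.54 and 2.92 CPM in DMSO replicates 1, 2 and 3 and 2.58, 2.76 and 2.49 CPM in AZD7762 replicates 1, 2 and 3. Its groups overlapped and the log2 fold change of -0.16 (its standard error was 0.157, 95% interval -0.50 to 0.18, adjusted p = 0.793 in edgeR's test) was not called. LINC01013 overlaps 11.9% of its exon length on the opposite strand and reached at most 0.119 CPM. CCN1 (ENSG00000142871, chromosome 1, 86046444 to 86050272) did not pass the filter, with 11, 5 and 11 counts with DMSO and 8, 11 and 9 counts with AZD7762. Its 27 and 28 counts per group, scaled by library, gave a ratio of 1.19 with a 95% exact binomial interval from 0.677 to 2.10, again for counting error only. Without a filter, edgeR's test gave an adjusted p of 0.903 for CCN1 and for LATS2.

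ANKRD1, a nuclear and sarcomeric ankyrin-repeat protein, is the most widely used YAP reporter gene besides the CCN genes. ANKRD1 (ENSG00000148677, chromosome 10, 92671853 to 92680844) had 0.779, 0.625 and 0.815 CPM in DMSO replicates 1, 2 and 3 and 0.636, 0.665 and 0.516 CPM in AZD7762 replicates 1, 2 and 3. These values came from 11 to 23 counts per sample and the groups overlapped. The log2 fold change was -0.28 (standard error 0.274, 95% interval -0.87 to 0.32, adjusted p = 0.809 in edgeR's test), so a change of the size seen for SRF was outside the interval in the upward direction, and a fall by nearly as much was not.

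**Figure D3:**
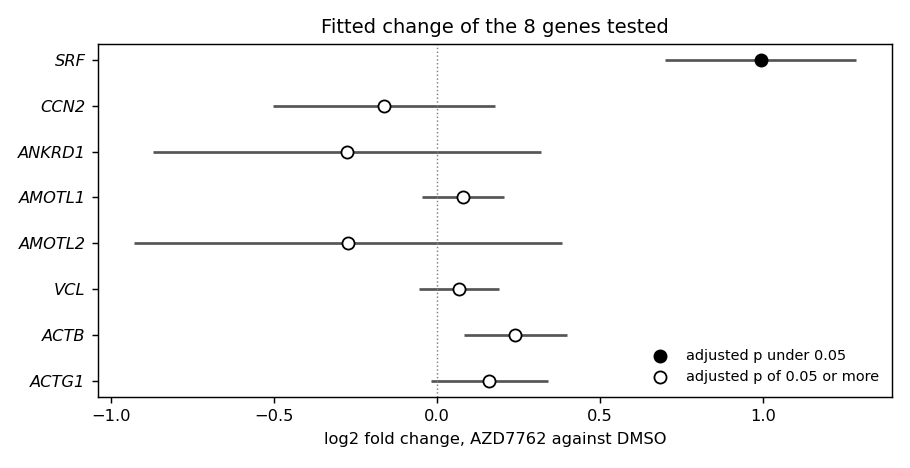
Fitted log2 fold change of AZD7762 against DMSO for the 8 genes tested, with lines for the 95% interval and a filled point where the adjusted p is under 0.05. SRF stands at 0.99, the intervals of CCN2, ANKRD1 and AMOTL2 are wide and span 0, and that of ACTB (0.08 to 0.40) lies above 0 without passing the adjusted threshold.

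Ratios between paralogs within a sample were compared by a two-sided exact permutation test, for which 3 samples against 3 allow no p under 0.1. The log2 ratio of CCN1 to CCN2 was -3.13 ± 0.66 with DMSO and -2.66 ± 0.32 with AZD7762 (SD, n = 3; exact p = 0.3, 0.4 adjusted over the 4 ratios). ACTB to ACTG1 was -0.89 ± 0.10 and -0.82 ± 0.05 (exact p = 0.3, adjusted 0.4), and AMOTL2 to AMOTL1 was -7.45 ± 0.22 and -7.86 ± 0.50 (exact p = 0.3, adjusted 0.4). LATS2 to LATS1 was -8.76 ± 0.53 and -8.68 ± 1.03 (exact p = 0.9, adjusted 0.9), and its difference changed sign when DMSO replicate 2, AZD7762 replicate 1 or AZD7762 replicate 2 was left out, with values from -0.36 to 0.65 over the samples left out. The groups overlapped in all 4 ratios. With 1 sample left out, the difference of 0.47 for CCN1 to CCN2 became 0.15 (without DMSO replicate 2) or 0.80 (without DMSO replicate 3), and that of -0.41 for AMOTL2 to AMOTL1 became -0.16 (without AZD7762 replicate 3) or -0.66 (without AZD7762 replicate 2). For ACTB to ACTG1, 0.07 became 0.02 without DMSO replicate 3 and 0.12 without DMSO replicate 2.

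The factors that act on these genes were then measured. The SRF cofactors MRTFA and MRTFB were expressed, at 4.72 ± 0.444 and 5.57 ± 0.156 CPM per kb with DMSO, while myocardin (MYOCD) was near the floor at 0.118 ± 0.0384 CPM. Of 7 genes in the list of SRF and its cofactors, 6 were tested and SRF was the only gene called, with a list median log2 fold change of 0.04. MRTFA (log2 fold change 0.18, adjusted p = 0.477 in edgeR's test), ELK4 (-0.15, 0.591) and ELK1 (0.10, 0.634) were not called. The YAP arm was unevenly expressed. YAP1 went from 1.02 ± 0.153 CPM in DMSO to 0.973 ± 0.145 CPM in AZD7762 samples, and WWTR1 had 0.519 ± 0.0891 and 0.602 ± 0.333 CPM. Their DNA-binding partner TEAD1 had 203 ± 12.8 and 193 ± 15.0 CPM. On the per-length scale this was 0.162 ± 0.0243 CPM per kb for YAP1 and 19.0 ± 1.19 for TEAD1 with DMSO. None of the 6 tested YAP, TAZ and TEAD factors was called, and their log2 fold changes ran from -0.20 (VGLL4) to 0.20 (WWTR1), with TEAD1 at -0.08, TEAD3 at -0.10 and TEAD4 at 0.10.

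**Figure D4:**
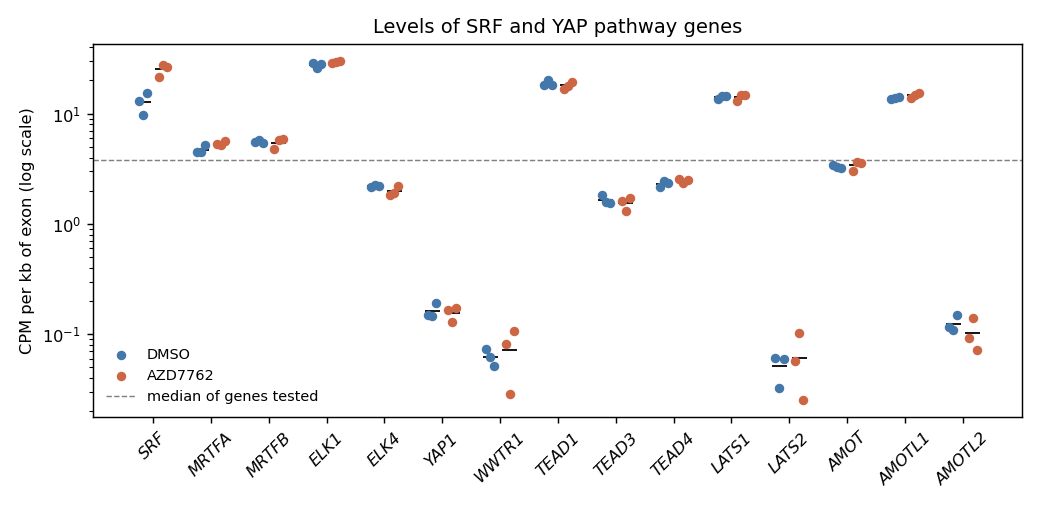
CPM per kb of exon (log scale) of SRF, its cofactors, YAP, TAZ (WWTR1) and TEAD factors, LATS kinases and angiomotins in 3 DMSO (blue) and 3 AZD7762 (orange) samples, with bars at group means and a dashed line at the median of genes tested (3.82). YAP1, WWTR1, LATS2 and AMOTL2 lie more than 10 times below that median, and TEAD1, LATS1 and AMOTL1 lie above it.

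Genes that act upstream of YAP and on the actin pool were measured as well. In the Hippo list, which includes AMOTL1, AMOTL2 and LATS2, 18 of 21 kinases and regulators were tested and none was called, with a median log2 fold change of -0.04 and a range from -0.27 (AMOTL2) to 0.08 (AMOTL1). With GC and length offsets and the replicate block, 1 was called. WWC2, MOB1B and TAOK2 had the smallest p, with log2 fold changes of -0.22, -0.11 and -0.17 (edgeR adjusted p = 0.566, 0.587 and 0.621). The actin monomer binders PFN1 (log2 fold change 0.25, unadjusted p = 0.00284) and CFL1 (0.19, unadjusted p = 0.0174) had every AZD7762 sample above every DMSO sample and were not called (adjusted p = 0.176 and 0.386 in edgeR's test).

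Other SRF targets were taken from lists of immediate early and of cytoskeletal genes. Of 10 signal-induced SRF targets, all were tested and 4 were called, all higher, against 0.708% of all genes tested. Their median log2 fold change was 0.76, against 0.0076 over all genes tested. This list was chosen with earlier results of these data known, so its calls and median are not independent support. The genes called were NR4A1, a nuclear receptor, with a log2 fold change of 3.50, and the AP-1 subunits FOS (2.92) and JUNB (1.47). The zinc finger factor EGR1 was also called (1.04, from 41.7 ± 10.6 to 86.1 ± 6.65 CPM, adjusted p = 0.00151 in edgeR's test). JUNB was not called without AZD7762 replicate 1 (adjusted p = 0.133 in edgeR's test), and the count of 4 became 7 without DMSO replicate 1 and 8 without a filter on low counts. EGR2, EGR3 and EGR4 had log2 fold changes of 0.81, 0.63 and 0.60 and were not called, and MCL1 had -0.02.

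Of 27 other cytoskeletal SRF targets, 21 were tested, 1 was called and 19 had a log2 fold change above 0, as did 9242 of all 17649 genes. Their median was 0.12. The gene called was CNN2, an actin-binding calponin, at 0.271, 0.478 and 0.192 CPM with DMSO and 1.07, 1.19 and 0.938 CPM with AZD7762 (log2 fold change 1.71 ± 0.327, standard error; adjusted p = 0.0310 by edgeR). It rested on 4 to 27 counts per sample and was lost with DESeq2's Wald test (adjusted p = 0.0738) and when any sample other than DMSO replicate 2 was left out (adjusted p from 0.0507 to 0.231 in edgeR's test). Calls in the list numbered from 0 to 4 over the alternatives. The LIM-domain genes FHL2 (0.490 ± 0.113 to 1.48 ± 0.619 CPM, unadjusted p = 0.000611, adjusted p = 0.0694 in edgeR's test) and ZYX, which encodes the focal adhesion protein zyxin (15.4 ± 3.19 to 22.6 ± 2.77 CPM, unadjusted p = 0.00117, adjusted p = 0.108), did not overlap between the groups and were not called. The abundant structural genes ACTN1, TLN1, TPM1, TPM4, FLNA and MYH9 had log2 fold changes between 0.09 and 0.12. The smooth muscle genes TAGLN and ACTA2 had 0.273 ± 0.0484 and 0.0355 ± 0.0261 CPM per kb with DMSO, below the median of genes tested. Of the 25 genes in this list with a promoter window, 11 held a CArG box, CNN2, FHL2, ACTN1, FLNA and TPM4 among them, against 1.60% of all genes with a window. GGAATG was held by 10 of these 25 genes and by 5 of the 8 members with a window, against 16.7% of all genes with one. Of the other YAP targets described below, 5 of 12 with a window held GGAATG. Of the 8 signal-induced SRF targets with a window, 2 held a CArG box, EGR1 and EGR2. The windows reach 250 bases before the start, and elements farther away were not searched.

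Of 17 other YAP targets, 10 were tested and none was called, against 1 with GC and length offsets, with or without the replicate block. Their median log2 fold change was 0.05. Those with the smallest p were NUAK2, a kinase (log2 fold change -0.36, unadjusted p = 0.00351, adjusted p = 0.202 in edgeR's test), FJX1 (-1.25, unadjusted p = 0.00407, adjusted p = 0.217), which had 0.723 ± 0.199 and 0.292 ± 0.0620 CPM, the ectonucleotidase NT5E (0.27, adjusted p = 0.482) and CRIM1 (-0.37, adjusted p = 0.597). NUAK2, FJX1 and CRIM1 had every AZD7762 sample below every DMSO sample, and NT5E had every one above. In the remaining tested genes of this list the groups overlapped. Of all genes tested, 15.0% did not overlap in either direction. The other 7 of the 17, among them MYOF, AXL and TGFB2, did not pass the filter on low counts.

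**Figure D5:**
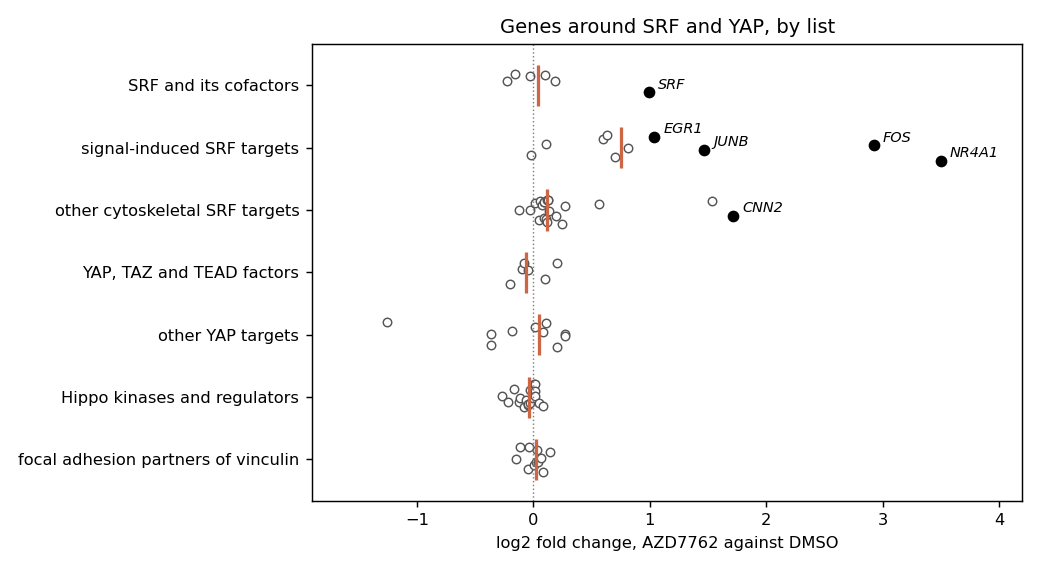
Log2 fold change of AZD7762 against DMSO for the tested genes of 7 lists, with a point per gene, filled and named where the adjusted p is under 0.05, and an orange line at each list median. The signal-induced SRF targets lie highest (median 0.76), and the other 6 list medians lie between -0.06 and 0.12. The lists were chosen with earlier results of these data known.

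The genes whose values over the 6 samples were most like those of SRF were found by the root mean square difference of centered log2 CPM among 13903 genes whose log2 CPM averaged 1 or more. SOX2, a transcription factor (0.134), and RASD1, a small GTPase (0.171), were among the 3 nearest, where the median gene stood at 0.552. Both had their lowest DMSO value in replicate 2 and their highest in replicate 3, as SRF did. Choosing the nearest genes over these same samples favours such a match. SOX2 had 9.11, 8.50 and 10.9 CPM in DMSO replicates 1, 2 and 3 and between 16.5 and 20.6 CPM in the AZD7762 samples. For ANKRD1 the nearest genes were ZNF239 (0.0443), ELF3 (0.0460) and NATD1 (0.0588), and for AMOTL2 they were EMSLR (0.122), FGF12-AS3 (0.124) and SEMA6D (0.128), where counting error in these low genes enters the measure.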

How the data were processed

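RNA-seq counts of 6 EndoC-βH1 samples, grouped by treatment from their titles, were analysed. Per the labels and methods, the authors checked reads with FastQC 0.10.1, trimmed them with cutadapt 1.18, mapped them to the GRCh37 genome and obtained gene counts from HTSeq-count. The aligner, strand setting and annotation release are not given in the sources used here. The deposited values are raw counts, 1 file per sample, without normalization.

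Gene symbols, coordinates, exon lengths and base composition were read from GENCODE v44 lifted to GRCh37, which lists 58646 of the 60671 identifiers. Its release differs from that of the files, so values per kb are approximate. The tools were R 4.3.3, DESeq2 1.42.0, limma 3.58.1 and edgeR 4.0.16. Genes were filtered with filterByExpr (minimum count 10), scaled by TMM and compared between treatments, with no other term, by edgeR's two-sided quasi-likelihood test, with Benjamini-Hochberg adjustment over 17649 genes at 0.05. Intervals are 95% intervals of the fit. Replicates of each group differed beyond sampling noise (chi-square per gene of 4.51 to 8.62). The fits were tested on simulated data.

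The members and gene lists were chosen with earlier results of these data known. Named from each list were the genes called and otherwise up to 4 with the smallest p, and for SRF, ANKRD1 and AMOTL2 the 3 genes nearest in pattern. Other genes, such as YAP1, WWTR1 and LATS1, were named after their values had been seen. Alternatives were other scalings, filters and tests, GC and length offsets, the replicate number as a block, and leaving out each sample. A few results that this rule would name are not reported here.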

Additional observations from a re-analysis of the deposited data

How the results depend on the processing

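Of all genes tested, 125 were called. With no filter on low counts this became 330 (and SRF had an adjusted p of 2.72e-37 in edgeR's test, far below that of any other alternative), 227 with GC and length offsets, and from 77 to 168 with 1 sample left out, the lowest without AZD7762 replicate 1 and the highest without DMSO replicate 3. With the replicate number as a block it was 378, and 575 with GC and length offsets and the replicate block together. Same-numbered samples deviated together with r of 0.05, 0.12 and 0.21 across genes. DMSO replicate 1 had a higher r, 0.17, with AZD7762 replicate 2. The labels give a number and no pairing, and these values do not settle whether same-numbered samples were paired. Under the block and under no filter, 2 members were called (SRF and ACTB), and 2 with the offsets and block. Of the pathway genes outside the members, 6 were called, against 13 without a filter, 10 with the replicate block and 14 with offsets and block, and from 4 to 8 with 1 sample left out. The cause was not tested. All 16 alternatives kept the direction of each of the 8 tested members, but sizes moved with 1 sample left out. AMOTL2 went from -0.27 to -0.56 without AZD7762 replicate 2, and to -0.14 and -0.09 without DMSO replicate 3 or AZD7762 replicate 3. CCN2 went from -0.16 to -0.06 and -0.27 without DMSO replicate 1 or 2, ANKRD1 from -0.28 to -0.18 without AZD7762 replicate 3, AMOTL1 from 0.08 to 0.05 without AZD7762 replicate 3, VCL from 0.07 to 0.04 without AZD7762 replicate 2, and ACTG1 from 0.16 to 0.07 without DMSO replicate 2. The paired form of the paralog ratios, by replicate block, had exact p between 0.25 and 1, where 0.25 is the smallest possible. For LATS2 to LATS1 the difference of 0.09 ranged from -0.36 to 0.65 with 1 sample left out. At these depths, CCN1 and LATS2, and changes of ANKRD1 and AMOTL2 under about the width of their intervals, were not resolved.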

Other observations

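The adhesion genes around vinculin and the other CCN genes were measured in the same samples. Of 12 focal adhesion and junction partners of vinculin, 11 were tested and none was called, with a median log2 fold change of 0.02 and a range from -0.15 (PARVA) to 0.15 (ILK). LIMS1 (-0.11, adjusted p = 0.596 in edgeR's test) and VASP (0.08, adjusted p = 0.694) had the smallest p. The integrin subunit ITGB1 was abundant at 869 ± 45.6 CPM in DMSO and 889 ± 51.3 CPM in AZD7762 samples, whereas its fibronectin-receptor partner ITGA5 had 0.0385 ± 0.0348 and 0.0920 ± 0.0514 CPM, under the floor in both groups. CTNNA1, the cadherin-bound α-catenin that recruits vinculin, had 320 ± 16.3 and 328 ± 5.78 CPM. Among the other CCN genes, CCN3 was the only 1 of 4 that passed the filter, at 6.28 ± 0.704 CPM in DMSO and 6.59 ± 0.404 CPM in AZD7762 samples (log2 fold change 0.06, adjusted p = 0.909 in edgeR's test). Per length, CCN3 had 2.40 ± 0.269 CPM per kb in the DMSO samples, beside 1.25 ± 0.160 for CCN2. CCN4 was at 0 counts in each library.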
